A study of Mus musculus with 6 samples.

Results

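Collagens are the triple-helical proteins of the extracellular matrix, and their genes were described here across 6 mouse lung libraries. Members were all rows of the deposited table whose gene name reads Col, a number, a and a number. This gave 40 genes of 21900 in the table, which fall into 10 fibrillar, 9 basement membrane and 21 other collagen genes. Gene expression was measured by RNA sequencing of lung from mice that had eaten a high fat diet for 10 weeks, to examine loss of Cyp1b1. The labels place 3 libraries in a Cyp1b1 KO group and 3 in a Wild Type group, each with 2 females (libraries 1 and 2) and 1 male (library 3). All 6 share tissue and diet, and the labels name no other treatment. The sources used here do not give strain, age or the kind of knockout allele. Separate animals are not stated for the libraries, and the p-values therefore cover library-to-library spread, which may be technical.

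Each collagen chain carries long runs of the repeat glycine-X-Y, and chains wind into trimers in which glycine fits the centre of the helix. Fibrillar collagens are made mainly by fibroblasts and smooth muscle and give the airway and alveolar wall its tensile strength. Network-forming collagen IV lies in the basement membranes between epithelium and capillary, where gas exchange takes place. Other members coat fibrils, form beaded filaments, build short-chain networks or span the cell membrane.

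The triple helix is visible in the genes themselves. The coding exons of fibrillar members are small units, and 281 of their 595 coding exons (47.2%) were exactly 54 bases long in GENCODE release M21, with between 21 and 33 such exons per gene. Among the basement membrane members only 22 of 495 coding exons (4.44%) had that length, with 1 to 6 per gene, and among fibril-associated members 66 of 312 (21.2%). The exons below, 1 from each of the 3 major fibrillar genes, are shown because they carry this repeat. They come from the GRCm38 genome (mm10), plus strand: exon 26 of 51 of Col1a1 at chr11:94944355-94944408, exon 27 of 52 of Col1a2 at chr6:4524117-4524170 and exon 26 of 51 of Col3a1 at chr1:45334761-45334814. Capitals mark codons for glycine, which are spaced 3 codons apart, 6 of the 18 in each exon.
Col1a1: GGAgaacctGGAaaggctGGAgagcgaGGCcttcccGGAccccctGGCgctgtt
Col1a2: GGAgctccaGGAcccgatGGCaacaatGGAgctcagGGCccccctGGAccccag
Col3a1: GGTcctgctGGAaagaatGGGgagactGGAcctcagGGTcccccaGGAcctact

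Collagen IV genes lie in head-to-head pairs. The annotated starts of Col4a1 (minus strand) and Col4a2 (plus strand) on chromosome 8 are 21 bases apart and the genes overlap by 22 bases. Col4a3 and Col4a4 start 72 bases apart on chromosome 1, and Col4a5 and Col4a6 start 1309 bases apart on the X chromosome. The windows below run from 250 bases before to 50 bases after each start (RefSeq, GRCm38.p6). They are shown because these genes were set side by side as partners, and Col4a1 and Col4a2 had close levels in every library. Col4a1 lies at chr8:11312777-11313076 on the minus strand and Col4a2 at chr8:11312555-11312854 on the plus strand, and capitals mark the 78 bases that both windows hold, read from opposite strands. The Col4a4 window lies at chr1:82586800-82587099 on the minus strand, and capitals mark the 71 bases between Col4a4 and Col4a3.
Col4a1: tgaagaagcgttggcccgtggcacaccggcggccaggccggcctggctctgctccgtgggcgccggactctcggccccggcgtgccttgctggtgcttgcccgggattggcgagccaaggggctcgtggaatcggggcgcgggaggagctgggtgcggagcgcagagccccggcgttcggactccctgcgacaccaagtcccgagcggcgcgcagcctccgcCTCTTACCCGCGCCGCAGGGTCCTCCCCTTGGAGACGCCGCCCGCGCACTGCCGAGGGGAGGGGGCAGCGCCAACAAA
Col4a2: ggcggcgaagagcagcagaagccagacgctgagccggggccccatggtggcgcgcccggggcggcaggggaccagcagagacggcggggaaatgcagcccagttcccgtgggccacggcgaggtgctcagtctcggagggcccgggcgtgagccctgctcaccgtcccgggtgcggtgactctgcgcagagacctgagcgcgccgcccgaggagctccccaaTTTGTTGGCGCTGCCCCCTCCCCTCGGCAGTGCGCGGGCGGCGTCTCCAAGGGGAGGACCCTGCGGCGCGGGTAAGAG
Col4a4: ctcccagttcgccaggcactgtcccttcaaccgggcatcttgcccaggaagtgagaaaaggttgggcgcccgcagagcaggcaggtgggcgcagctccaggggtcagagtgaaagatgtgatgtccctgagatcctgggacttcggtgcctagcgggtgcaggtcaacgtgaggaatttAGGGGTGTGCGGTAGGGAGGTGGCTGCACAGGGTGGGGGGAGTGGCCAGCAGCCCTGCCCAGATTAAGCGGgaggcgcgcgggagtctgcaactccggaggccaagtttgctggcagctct

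RefSeq windows of 300 bases were found for 32 of the 40 members, and 3 motifs were searched on both strands. The GC box GGGCGG stood in a window of 21 of the 32 members (65.6%), against 35.7% of 32851 promoter windows of all genes. Members were counted by gene and the background by window, so these shares are not of the same unit. The CCAAT box, spelled CCAAT, stood in 12 (37.5% against 37.4%), Col4a1 and Col4a2 among them, and the TATA box, spelled TATAAA, in 5 (15.6% against 13.6%). Each count is of letters in a window and describes no binding.

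Library depth, read from the smallest step between low values, was between 20.2 M and 27.6 M assigned reads. Markers of alveolar type 1 cells, an epithelial cell type of the lung, were all measured (8 of 8). They summed to between 4252 and 4649.7 CPM (counts per 1000000 assigned reads) in labelled knockout and between 3743 and 5161 CPM in labelled wild type. Cyp1b1 was at 51.2, 56.1 and 48.4 CPM in labelled knockout 1, 2 and 3, against 12.5, 19.04 and 18.5 CPM in labelled wild type 1, 2 and 3. It was thus higher where the labels say knockout (log2 difference 1.63, SE 0.18, limma adjusted p = 0.0588), and every genotype direction below is that of the labels. The labelled knockout male stood apart: its 10 neutrophil markers summed to 6247 CPM, against 176 to 328 CPM in the other 5 libraries, and its 7 measured erythroid markers (of 8; Ahsp was not analysed here) to 5913 CPM, against 852 to 2769.5 CPM. Some differences are also given without this library. The comparison of genotype between sexes cannot be estimated without it.

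Levels were compared between genes as CPM per kilobase of exon (all transcripts of a gene merged). Collagen IV, fibrillar collagens I and III and collagen VI made up most of the collagen transcript of these lungs. Col4a2 and Col4a1, which form the common trimer of all basement membranes, led with means of 95.9 and 94.7 CPM per kilobase over the 6 libraries. Col1a1, a chain of the main tensile fibril, followed at 52.7, Col6a1 at 51.7, Col3a1 at 32.8 and Col1a2 at 32.6 CPM per kilobase. Col4a3, Col4a4 and Col4a5, the chains of the specialised alveolar and glomerular basement membrane, were at 19.4, 13.8 and 12.0 CPM per kilobase.

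**Figure D1:**
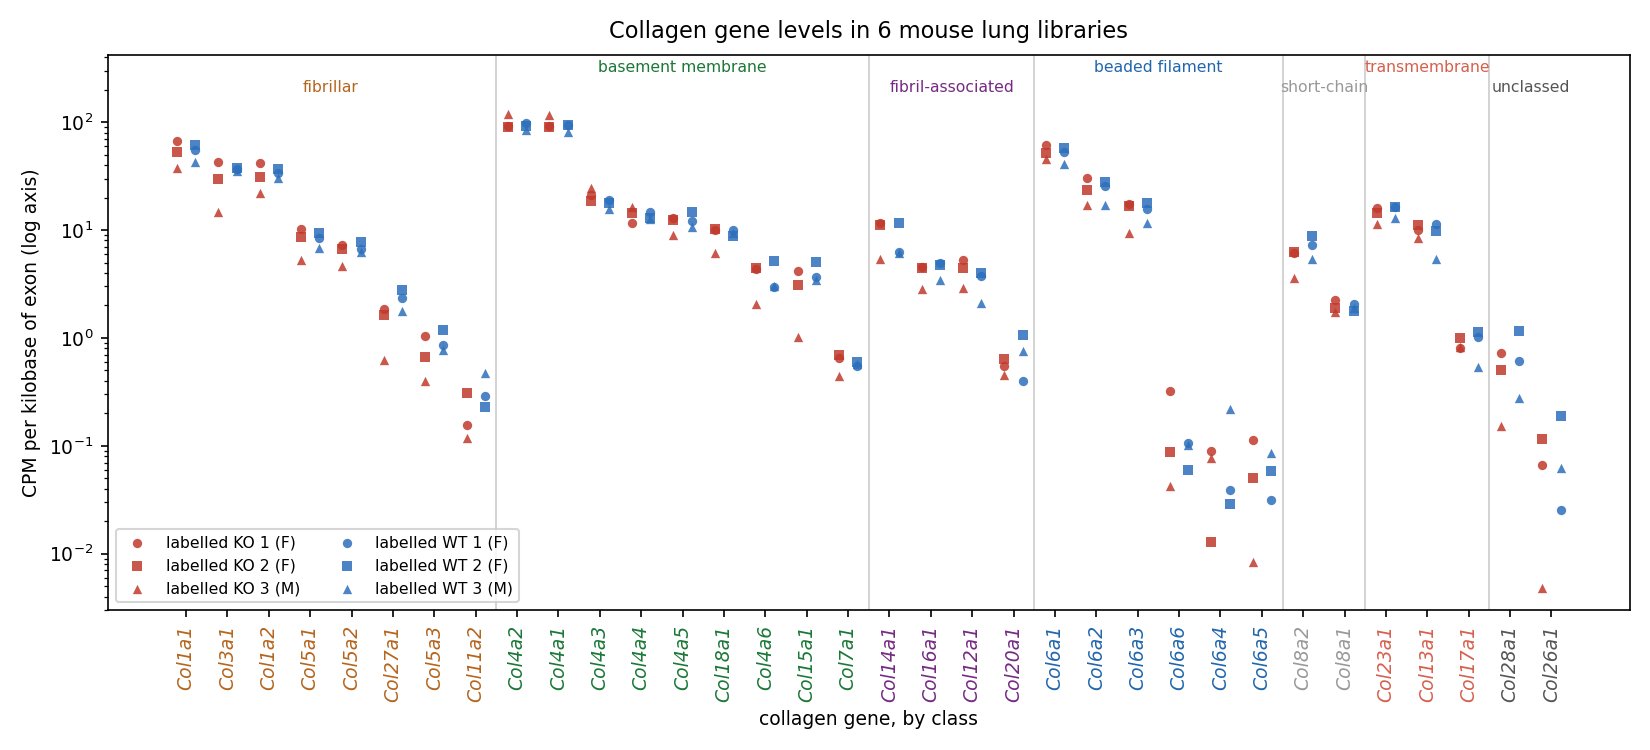
Level of the 34 collagen genes that passed the filter on low values, by class, in CPM per kilobase of exon on a log axis. Each point is 1 library (red, labelled knockout, left; blue, labelled wild type, right; circles and squares, females; triangles, males), and Col4a1 and Col4a2 stand highest with means of 94.7 and 95.9.

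Basement membrane genes held 48.0% ± 6.40 of the summed collagen level per kilobase (SD, n = 6 libraries) and fibrillar genes 25.5% ± 4.20. Beaded filament genes (collagen VI) held 16.95% ± 1.56, transmembrane genes 4.67% ± 0.44, fibril-associated genes 3.24% ± 0.67 and short-chain network genes 1.54% ± 0.26. The basement membrane share was 42.2%, 46.4% and 60.2% in labelled knockout 1, 2 and 3, against 46.6%, 43.9% and 48.8% in labelled wild type 1, 2 and 3. The fibrillar share was 29.2%, 25.2% and 17.3% in labelled knockout 1, 2 and 3, against 26.3%, 27.5% and 27.3% in labelled wild type 1, 2 and 3. The labelled knockout male thus had the highest basement membrane share and the lowest fibrillar share, while the other 5 libraries lay within 42.2% to 48.8% and 25.2% to 29.2%. With the length of the longest transcript in place of merged exons, the fibrillar share was 32.0% and the basement membrane share 42.0%. Both shares were then 36.2% in labelled knockout 1, so the size of the basement membrane lead depends on the length used. In whole lung, fewer cells of a type and less RNA per cell cannot be told apart.

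**Figure D2:**
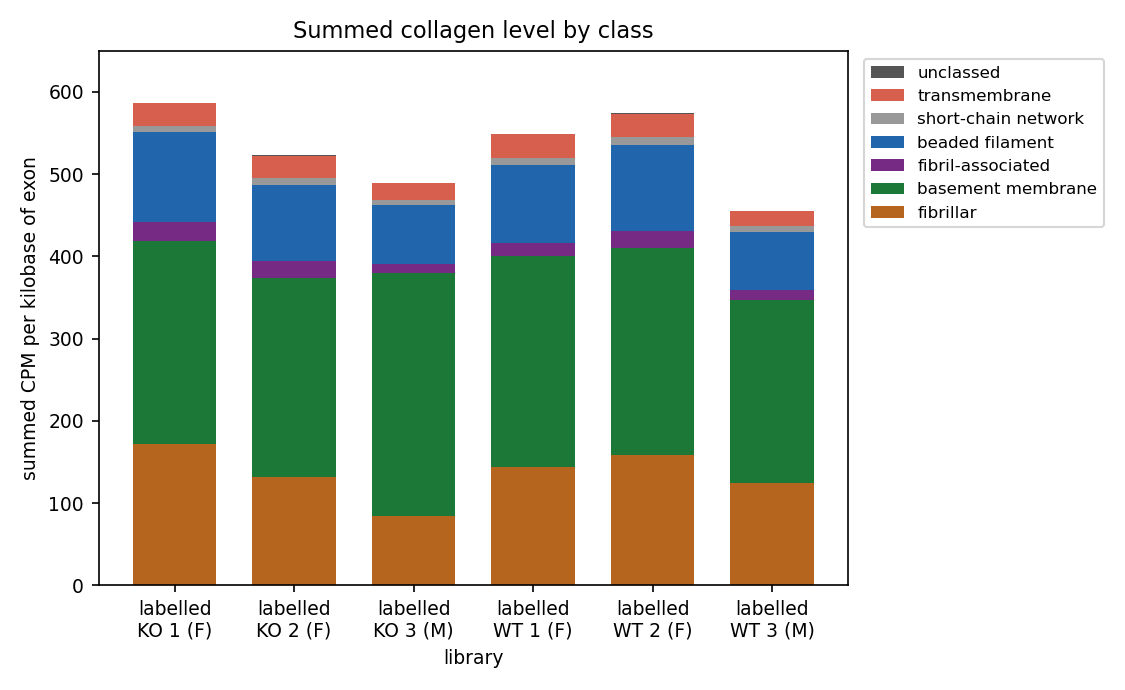
Summed CPM per kilobase of exon over all 40 collagen genes, stacked by class, for each of the 6 libraries (F, female; M, male). The labelled knockout male has the tallest basement membrane block (294.55) and the shortest fibrillar block (84.8).

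Chains that assemble together kept steady ratios of level in some trimers and not in others. Col4a1 over Col4a2, per kilobase, lay between 0.949 and 1.02 in all 6 libraries, and between 1.04 and 1.12 with the longest transcript as length. Reads in their 22 shared bases may have been counted for either gene, since the sources used here do not give the strand setting of counting. The pair Col4a3 over Col4a4 ranged from 1.22 to 1.82 and Col4a5 over Col4a6 from 2.81 to 4.34. Col4a3 over Col4a1, chains of different trimers, lay between 0.189 and 0.229. In proportion this range was narrower than that of the partners Col4a3 and Col4a4 and wider than that of Col4a1 and Col4a2. Col1a1 over Col1a2, which combine in collagen I, ranged from 1.39 to 1.71 with merged exons but from 0.661 to 0.812 with the longest transcript. The order of these genes depends on that length, since the merged exons of Col1a2 span 12426 bases and its longest transcript 5348. Across classes the ratio of Col4a1 to Col3a1 was 2.17, 3.01 and 7.97 in labelled knockout 1, 2 and 3, against 2.56, 2.49 and 2.31 in labelled wild type 1, 2 and 3. That ratio separated the labelled knockout male from the other 5 libraries.

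Minor members spanned a wide range. The fibril nucleators Col5a1 and Col5a2, whose chains control the diameter of collagen I fibrils, were at 8.12 and 6.53 CPM per kilobase, and Col5a3 at 0.822. Col27a1, a minor fibrillar gene, was at 1.85 and Col11a2, known from cartilage, at 0.263. Of the transmembrane members, Col23a1 (14.5) and Col13a1 (9.36) stood well above Col17a1 (0.888), the collagen of hemidesmosomes. Col6a4, Col6a5 and Col6a6, alternative partners of Col6a1 and Col6a2, were between 0.0580 and 0.120 CPM per kilobase, against 14.8 for Col6a3, the partner they can replace. Col6a2 was at 23.6 CPM per kilobase. Among basement membrane zone members, Col18a1 was at 9.08, Col4a6, a partner of Col4a5, at 3.66, Col15a1 at 3.41 and Col7a1, which forms anchoring fibrils, at 0.587 CPM per kilobase. Among collagens that sit on the fibril surface, Col14a1 was at 8.68, Col16a1 at 4.15, Col12a1 at 3.77 and Col20a1 at 0.643 CPM per kilobase. The short-chain genes Col8a2 and Col8a1 were at 6.23 and 1.94, and Col28a1 and Col26a1, placed in no class, at 0.573 and 0.0769 CPM per kilobase. A mean of at least 0.5 CPM, the filter for testing, was reached by 34 of the 40 members. Those below it were the fibrillar genes Col11a1 and Col24a1, the fibril-associated Col9a3 and Col22a1, the short-chain Col10a1 and the transmembrane Col25a1, with means between 0.118 and 0.451 CPM. Col24a1 was at 0.269, 0.290 and 0.117 CPM in labelled knockout 1, 2 and 3, against 0.293, 1.14 and 0.598 CPM in labelled wild type 1, 2 and 3. Its labels did not overlap, but it stood below the filter; with no filter all 40 members were tested and 0 passed between the labels. Another 5 collagen symbols of the classification, Col2a1, Col9a1, Col9a2, Col19a1 and Col21a1, were not analysed here.

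Between the genotype labels no collagen gene passed the test. Differences were fitted with limma on log2(CPM + 0.5) over 17382 genes, with sex as a term, and are labelled knockout minus labelled wild type; the scale understates changes of low genes. Of 34 members 0 had an adjusted p under 0.05, where 2 of all genes (0.0115%) did. At an unadjusted p under 0.05 limma gave 4 members (11.8%; Col27a1, Col8a2, Col12a1 and Col15a1), against 5.13% of all genes. For 0 of the 34 did the labels separate in all libraries, where 9.52% of all genes did. The median log2 difference was -0.09 over the members and -0.06 over all genes tested.

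The largest of these differences was that of Col27a1. It was at 24.4, 21.5 and 8.19 CPM in labelled knockout 1, 2 and 3, against 30.6, 36.3 and 23.4 CPM in labelled wild type 1, 2 and 3. Both females labelled knockout lay below both females labelled wild type, and each male was lowest in its label, but 1 labelled knockout female lay above the labelled wild type male. It averaged 18.0 ± 8.63 CPM in labelled knockout and 30.1 ± 6.49 CPM in labelled wild type (SD, n = 3 each; log2 difference -0.84, SE 0.21, limma adjusted p = 0.775). Without the labelled knockout male the difference was -0.53.

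Col15a1, whose product bridges basement membrane and underlying fibrils, was at 26.4, 19.5 and 6.51 CPM in labelled knockout 1, 2 and 3, against 23.4, 32.2 and 22.0 CPM in labelled wild type 1, 2 and 3. The low value of the labelled knockout male set it apart, and the other 5 libraries overlapped. The log2 difference was -0.74 (SE 0.30, limma adjusted p = 0.775) and -0.27 without that library.

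Col8a2, a short-chain network collagen of vessel walls and cornea, was at 27.2, 28.1 and 16.1 CPM in labelled knockout 1, 2 and 3. In labelled wild type 1, 2 and 3 it was at 32.7, 39.6 and 24.0 CPM (log2 difference -0.44, SE 0.14, limma adjusted p = 0.775). Within each sex labelled knockout was lower, while the females labelled knockout lay above the labelled wild type male. Col12a1, a fibril-associated collagen that links fibrils to other matrix, was at 81.0, 67.8 and 44.5 CPM in labelled knockout 1, 2 and 3, against 57.1, 61.4 and 32.2 CPM in labelled wild type 1, 2 and 3. It stood higher in labelled knockout within each sex (log2 difference 0.37, SE 0.12, limma adjusted p = 0.775), and the labels overlapped, with both males low.

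By class, all 8 fibrillar members tested had a difference below 0, with a median of -0.31, but 2 of them turned positive after median centring of the libraries. Basement membrane members were split, 4 below and 5 above 0 (median 0.03), and Col4a1 to Col4a4 were 4 of those 5, with values from 0.07 to 0.28. Of all 34, 21 were below 0 (61.8%), where 59.9% of all genes were; after median centring these were 16 members (47.1%) and 42.1% of all genes, and after quantile normalization 20 members (58.8%) and 48.2%. In the 4 females alone, 16 of 34 members were below 0 and the fibrillar median was -0.061. Both females labelled knockout lay above both females labelled wild type for Col12a1 and Col7a1 (2 members, 5.88%), where 14.3% of all genes did. They lay below for Col16a1, Col17a1, Col23a1, Col27a1, Col4a1, Col4a2 and Col8a2 (7 members, 20.6%), where 14.6% of all genes did.

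**Figure D3:**
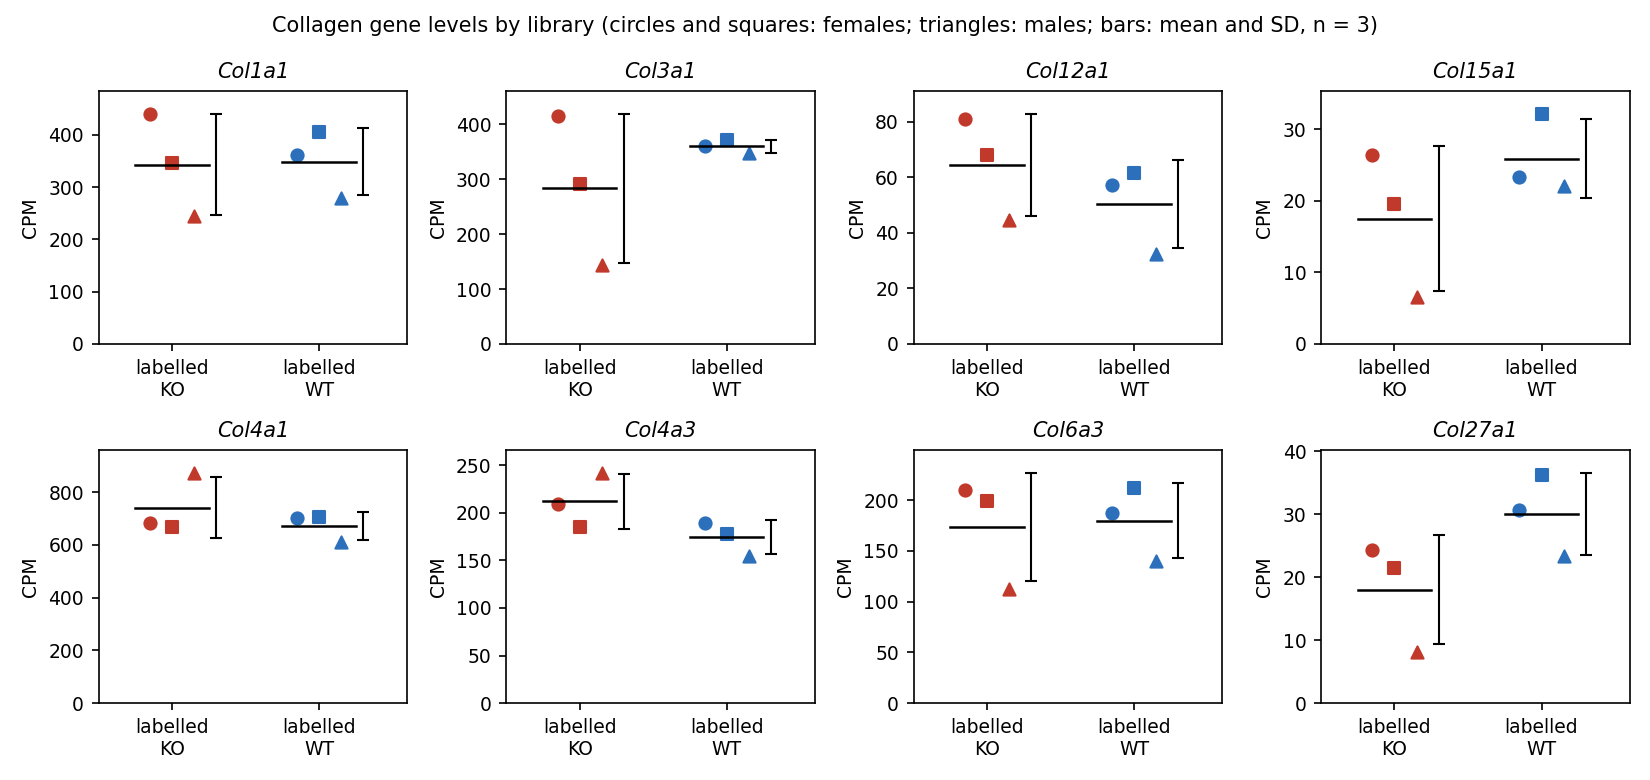
CPM of 8 collagen genes in each library, labelled knockout left of labelled wild type, with the mean and SD of 3 libraries as bars. Triangles are males: they are lowest in each label for Col1a1, Col3a1, Col12a1, Col15a1, Col6a3 and Col27a1, whereas the labelled knockout male is highest for Col4a1 (873 CPM) and Col4a3 (242 CPM).

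Between the sexes most collagen genes stood lower in the males. The sex difference was fitted together with the label term, as male minus female, with 2 males and 4 females. Col12a1 passed and was lower in males, 1 of 34 members, where 145 of all genes (0.834%) passed and 36 (0.207%) were lower. At an unadjusted p under 0.05 limma gave 19 members (55.9%), all lower in males, against 9.0% of all genes in that direction. Below 0 were 28 of 34 (82.4%), where 57.4% of all genes were; the 28 stood against 55.8% of all genes after quantile normalization and 50.4% after median centring. The median log2 difference was -0.52 over the members and -0.05 over all genes. Within labelled knockout, male minus females had a member median of -0.67, with -0.13 over all genes, and within labelled wild type -0.32, with 0.0089 over all genes.

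**Figure D4:**
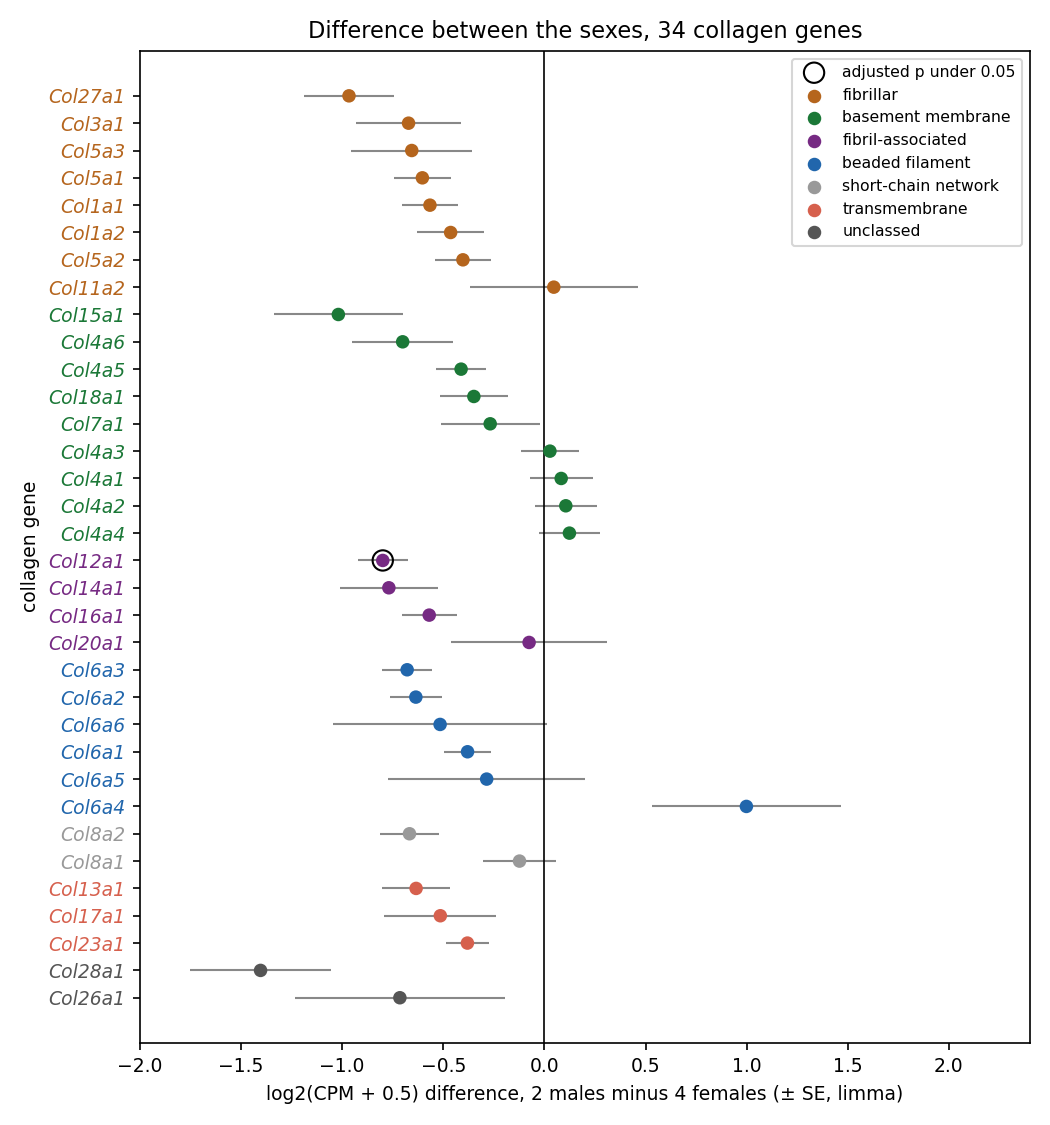
Log2(CPM + 0.5) difference, males minus females, of the 34 collagen genes tested, by class, with the SE from limma as bars and a ring on the gene past the threshold. Most points lie left of 0 (28 of 34), and Col4a1, Col4a2, Col4a3 and Col4a4 lie between 0.03 and 0.12.

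Col12a1 was at 44.5 CPM in the labelled knockout male and 32.2 CPM in the labelled wild type male, against 81.0 and 67.8 CPM in females labelled knockout and 57.1 and 61.4 CPM in females labelled wild type. Both males lay below all 4 females. The log2 difference was -0.80 (SE 0.12, limma adjusted p = 0.0363). The call ended after median centring (limma adjusted p = 0.0568) and without any 1 of the 4 females, from 0.0852 without labelled wild type 2 to 0.141 without labelled knockout 1. Without labelled knockout 3 the difference was -0.87, and without labelled wild type 3 it was -0.73. Each of these rests on 1 male, so its p-value would not measure spread among males and is not given.

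Col6a3, the large chain of collagen VI, came next. It was at 113 CPM in the labelled knockout male and 140.4 CPM in the labelled wild type male, against 210.0 and 199 CPM in females labelled knockout and 187 and 213 CPM in females labelled wild type. The sexes did not overlap (log2 difference -0.68, SE 0.12, limma adjusted p = 0.0542), and the gene passed under quantile normalization and with robust moderation. The Col6a3 difference was -0.50 without the labelled knockout male and -0.85 without the labelled wild type male. Col6a2, its partner, was at 143 CPM in each of the males, against 253 and 196 CPM in females labelled knockout and 212 and 231 CPM in females labelled wild type (log2 difference -0.64, limma adjusted p = 0.0705). Col6a1 was at 199 and 178 CPM in the males labelled knockout and wild type, against 228 to 267 CPM for all 4 females (log2 difference -0.38, limma adjusted p = 0.175). All 3 chains of the standard collagen VI trimer were thus lowest in the males.

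Collagen I followed the same order. Col1a1 was at 244 CPM in the labelled knockout male and 278 CPM in the labelled wild type male, against 439 and 346 CPM in females labelled knockout and 362 and 405 CPM in females labelled wild type. Col1a2 was at 271 CPM in the labelled knockout male and 379.9 CPM in the labelled wild type male, against 515 and 386 CPM in females labelled knockout and 422 and 457 CPM in females labelled wild type. Both males lay below the 4 females for both genes, narrowly so for Col1a2 in labelled wild type, and neither passed (log2 differences -0.57 and -0.46, limma adjusted p = 0.107 and 0.238). For Col1a2 the difference was -0.21 without the labelled knockout male and -0.72 without the labelled wild type male. For Col1a1 it was -0.46 and -0.67 in that order.

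Col5a1, a fibril nucleator, was at 45.0 CPM in the labelled knockout male and 57.5 CPM in the labelled wild type male, against 72.1 to 86.0 CPM for all 4 females (log2 difference -0.60, SE 0.14, limma adjusted p = 0.101). Without the labelled knockout male the difference was -0.39, and without the labelled wild type male -0.81. Col27a1 and Col8a2, with values above, had log2 differences of -0.97 and -0.67 (limma adjusted p = 0.101 and 0.0898). For Col27a1 the difference was -0.50 without the labelled knockout male and -1.43 without the labelled wild type male. Col27a1 overlapped between the sexes and Col8a2 did not.

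Both males lay below all 4 females for 15 of 34 members (44.1%), where 14.7% of all genes did, and above them for 0, where 9.28% did. The 15 were Col1a1, Col1a2, Col5a1 and Col5a2 of the 8 fibrillar members, Col12a1, Col14a1 and Col16a1 of the 4 fibril-associated ones, Col6a1, Col6a2 and Col6a3 of the 6 of collagen VI, and Col8a2, Col13a1, Col23a1 and Col28a1. Of the 9 basement membrane members only Col4a5, which lies on the X chromosome, was among them. Without the labelled knockout male, the remaining male lay below all females for 19 members, where 27.1% of all genes did. Without the labelled wild type male this held for 27 members, where 43.2% did. Leaving out a male can only keep or raise these counts. The 4 members Col4a1 to Col4a4 had sex differences between 0.03 and 0.12, and all 4 turned negative without the labelled knockout male (-0.20, -0.17, -0.24 and -0.11).

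Summed markers of several cell types also stood lower in the males. Fibroblast markers (12 of 12 measured) summed to between 3027 and 3062 CPM in males and between 3468 and 4642 CPM in females. Smooth muscle markers (8 of 8) summed to 971 to 1041 CPM in males and 1216 to 1768 CPM in females, and pericyte markers (8 of 8) to 645 to 684 CPM in males and 742 to 899 CPM in females. Mesothelial markers (8 of 8) summed to 311 to 346 CPM in males and 463 to 537 CPM in females. Cartilage markers (7 of 12 measured; Acan, Matn1, Cnmd, Snorc and Ucma were not analysed here) summed to 43.1 to 53.6 CPM in males and 59.1 to 94.2 CPM in females. Each of these 5 sums was lowest in the males, and their part in the collagen differences was not tested. The cartilage sum rested mostly on Chad, at 30.8 and 30.9 CPM in the males labelled knockout and wild type. In females Chad was at 35.8 to 71.1 CPM, and the other cartilage markers were not summed without it. Of single markers, Tagln of smooth muscle, Emcn of endothelium and Upk3b and Krt19 of mesothelium were called lower in males by limma, with adjusted p between 0.0211 and 0.0491. The endothelial markers as a sum did not separate the sexes, at 3080.5 to 5678.5 CPM in males and 3751 to 4560.5 CPM in females. With 2 males, sex and any other difference shared by their lungs cannot be told apart.

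The genotype difference was then compared between the sexes, as the difference in males minus that in females (interaction term). Col3a1 came closest to the threshold, 0 of 34 members passed, and 441 of all genes (2.54%) did. At an unadjusted p under 0.05 limma gave 8 members (23.5%), against 17.9% of all genes, 4 of them below 0 (Col3a1, Col15a1, Col18a1 and Col27a1; 12.3% of all genes) and 4 above 0 (Col4a1, Col4a2, Col4a3 and Col13a1; 5.59% of all genes). Over all members 26 of 34 terms were below 0 (76.5%), where 60.5% of all genes were, but 20 (58.8%) and 47.4% after quantile normalization, and 18 (52.9%) and 43.2% after median centring, which moved the all-gene median from -0.13 to 0.09. With 1 male per label, the spread comes from the females and each male is assumed to vary like them.

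**Figure D5:**
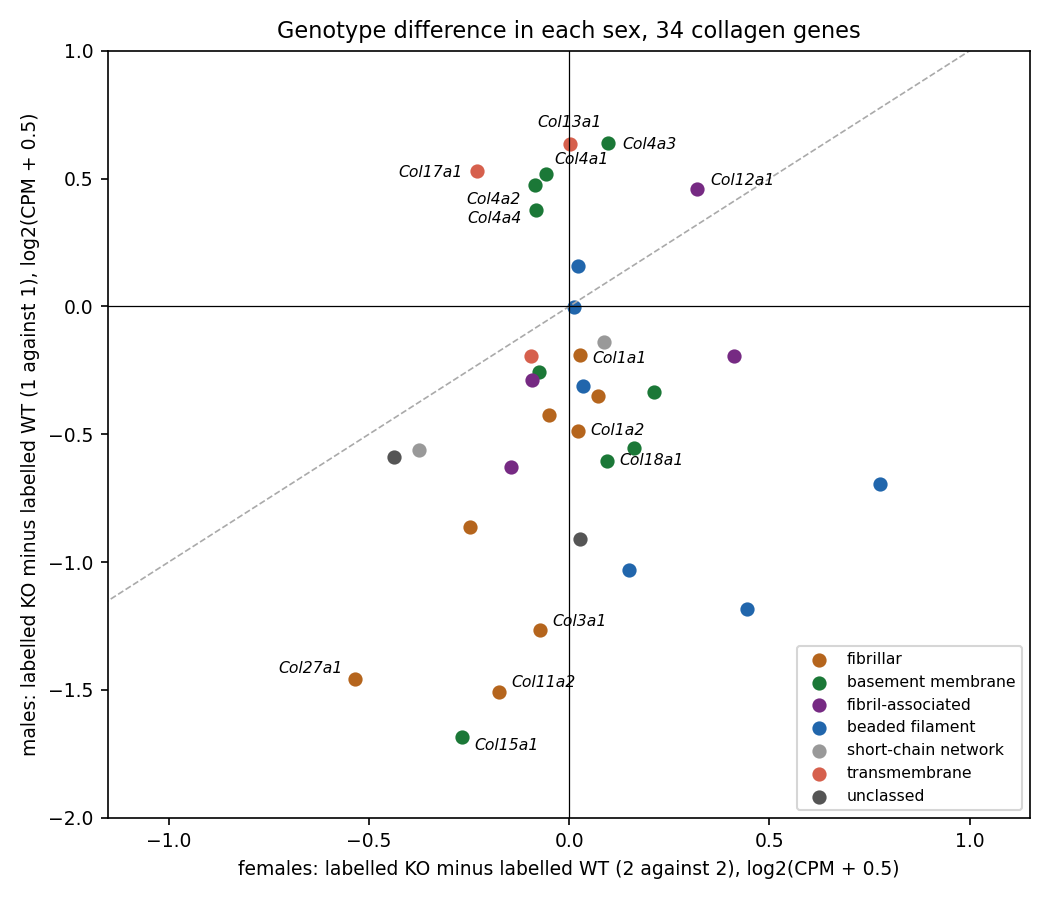
Labelled knockout minus labelled wild type difference of the 34 collagen genes tested, on the log2(CPM + 0.5) scale, in males (vertical, 1 against 1) and females (horizontal, 2 against 2); the dashed line marks equal differences. Fibrillar genes lie between -1.51 and -0.19 in males (1 of 8 above 0 after median centring) and between -0.53 and 0.07 in females, whereas Col4a1 to Col4a4 lie between 0.38 and 0.64 in males and between -0.08 and 0.10 in females.

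Col3a1, the collagen of distensible tissues such as vessel wall and lung, was at 416, 291 and 144 CPM in labelled knockout 1, 2 and 3, against 360.1, 372 and 347 CPM in labelled wild type 1, 2 and 3. The labelled knockout male was the lowest library and labelled knockout 1 the highest, while the 3 labelled wild type libraries lay close together. The difference between labels was -1.27 in males and -0.07 in females. The interaction term was -1.19 (SE 0.27, limma adjusted p = 0.0652), and it passed with robust moderation (limma adjusted p = 0.0399). With 1 female left out the term ranged from -1.45 to -0.94. Those fits leave 1 female in a label, so their p-values are not given.

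Col15a1 and Col18a1, both multiplexins that release endostatin-like fragments, pointed the same way. Col18a1 was at 69.7, 71.3 and 43.3 CPM in labelled knockout 1, 2 and 3, against 70.4, 61.9 and 66.0 CPM in labelled wild type 1, 2 and 3. The labelled knockout male again lay below the other 5 libraries. Their interaction terms were -1.42 and -0.70 (limma adjusted p = 0.107 and 0.135), and that of Col27a1 was -0.92 (limma adjusted p = 0.155). Col18a1 and the folate carrier Slc19a1 overlap on opposite strands, and with the strand setting unknown, reads in the bases they share may have been counted for either.

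Collagen IV pointed the other way. Col4a1 was at 685, 666 and 873 CPM in labelled knockout 1, 2 and 3, against 702, 704 and 610.3 CPM in labelled wild type 1, 2 and 3. Col4a2 was at 605, 592 and 782 CPM in labelled knockout 1, 2 and 3, against 656, 613 and 562 CPM in labelled wild type 1, 2 and 3. The labelled knockout male was highest and the labelled wild type male lowest for both genes. Col4a3 was at 209, 185 and 242 CPM in labelled knockout 1, 2 and 3, against 189.7, 178 and 155 CPM in labelled wild type 1, 2 and 3, in the same order. The interaction terms of the 3 genes were 0.58, 0.56 and 0.54 (limma adjusted p = 0.147, 0.158 and 0.181), none past the threshold.

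Col4a4 was also highest in the labelled knockout male, at 175 CPM, against 122 to 155 CPM in the other 5 libraries. Col4a5 and Col4a6 did not follow: the labelled knockout male was their lowest library, at 60.1 CPM for Col4a5 and 16.5 CPM for Col4a6. For all 34 members, the labelled knockout male was the lowest of 6 libraries in 24 (70.6%), where 37.5% of all genes were lowest there, and the highest in 4 (11.8%), where 17.6% were. The 4 were Col4a1, Col4a2, Col4a3 and Col4a4. After median centring, a check added after seeing the data, these were 19 members (55.9%) and 21.7% of all genes lowest, and the same 4 members (11.8%) and 31.5% of all genes highest. In males the label difference was below 0 for all 8 fibrillar members, with a median of -0.67, and for 7 of the 8 after centring (median -0.42). Over all genes its median was -0.15, and 0.10 after centring.

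Endothelial markers (8 of 8 measured) summed to 4303, 4223 and 5678.5 CPM in labelled knockout 1, 2 and 3, against 4560.5, 3751 and 3080.5 CPM in labelled wild type 1, 2 and 3. The sum was thus highest in the labelled knockout male and lowest in the labelled wild type male. Vwf, stored in endothelial cells and platelets, made up 1891 CPM of it in the labelled knockout male, and the other 7 markers, a sum added after seeing the data, gave 3787 CPM there, against 2564 to 3860 CPM in the other 5 libraries. The part of endothelial, neutrophil and erythroid RNA in the collagen differences was not tested. Of the neutrophil list 8 of 10 genes were called higher by the interaction term, and of the erythroid list Slc4a1 and Alas2 were called higher in males (limma adjusted p = 0.0332 and 0.0393). Schwann cell markers (8 of 8 measured) summed to 116 to 125 CPM in labelled knockout and 112 to 124 CPM in labelled wild type, and airway basal cell markers (7 of 8; Dlk2 was not analysed here) to 370.5 to 413 CPM in labelled knockout and 421 to 468 CPM in labelled wild type. Limma called 0 genes of these lists in any comparison.

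Genes that act on collagen were taken from 7 lists, and 0 of their members passed between the genotype labels. Enzymes that hydroxylate and glycosylate collagen (15 of 15 tested), chaperones and export factors (13 of 13) and basement membrane partners of collagen IV (16 of 16) had 0 calls in any comparison. Nearest to the threshold were Creb3l1, a factor that drives collagen secretion, between the sexes (log2 difference -0.77, limma adjusted p = 0.0557), and Fkbp14, a prolyl isomerase, and the laminin chain Lamc3 in the interaction (terms 1.40 and 1.26, limma adjusted p = 0.0679 and 0.0743). The 3 lists had median sex differences of -0.05, -0.12 and -0.15, against -0.52 for the collagens. Medians were -0.21 for propeptide cleavage and cross-linking, -0.38 for fibril-binding proteoglycans and glycoproteins, 0.14 for degradation genes and -0.07 for receptors. Summed levels of chaperones, basement membrane partners and fibril-binding genes were lower in both males than in every female. Sums of the other lists overlapped between the sexes. Between the sexes 1 of 14 genes for propeptide cleavage and cross-linking passed, Pcolce, the enhancer of procollagen C-proteinase. Pcolce was at 65.2 CPM in the labelled knockout male and 93.8 CPM in the labelled wild type male, against 124.5 to 147 CPM for all 4 females (log2 difference -0.79, SE 0.14, limma adjusted p = 0.0489). Like 15 of the collagens, it was lower in both males than in every female. Fibril-binding proteoglycans and glycoproteins (14 tested), degradation genes (16) and collagen receptors (11) had 0 calls between the sexes.

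In the interaction test 10 of the 99 partner genes tested passed (10.1%), 5 higher and 5 lower, where 2.54% of all genes and 0 of the 34 collagens did. The lists were chosen with earlier results of these data known, so these shares describe the lists and test nothing about them. With no filter on low values limma called 0 of all genes in this test, these 10 included. Lox, the oxidase that starts collagen cross-linking, was at 60.7, 70.0 and 215 CPM in labelled knockout 1, 2 and 3, against 57.2, 62.9 and 68.8 CPM in labelled wild type 1, 2 and 3 (interaction term 1.52, limma adjusted p = 0.00983). Its high value in the labelled knockout male stood in the library where Col1a1 and Col3a1 were lowest. Ogn, a small leucine-rich proteoglycan, was also called higher, and so were the collagenase Mmp8, the gelatinase Mmp9, both of which neutrophils carry, and the receptor Adgrg1. Among genes called lower were Ctsk, a collagen-cleaving cathepsin, the macrophage elastase Mmp12 and the collagen receptor Lair1. Of the 16 degradation genes 2 had a called term above 0, Mmp8 and Mmp9, and 4 below 0. Mmp8 also stands on the neutrophil list.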

How the data were processed

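RNA from 6 lung samples was sequenced, and the authors deposited CPM, counts per 1000000 reads assigned to genes, for 21900 genes. TopHat 2, Partek and mm10 are named per the submitters' processing notes, without their roles; the sources used here do not give the gene annotation, strand setting or filters. In the low values, 82.2% to 83.4% lay within 0.05 of whole multiples of the smallest step, which gave depths of 20.2 M to 27.6 M reads, and 3 reads equal 0.109 to 0.148 CPM. Genes with no reads are listed at 0.0001. Of the gene IDs, 21846 (99.75%) matched GENCODE M21 (GRCm38).

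Genes with a mean of at least 0.5 CPM (17382) were tested as log2(CPM + 0.5) with limma 3.58.1 (R 4.3.3, trend), with genotype and sex as terms, and with their interaction in a second fit. P-values were adjusted by Benjamini-Hochberg over all 17382 genes, with a threshold of 0.05. Groups and sexes came from the labels. Levels between genes were divided by exon length. The fit was tested on simulated data. Tables and figures were made with matplotlib 3.10.9, numpy 2.4.6 and pandas 2.3.3 under Python 3.11.15. Members and the 18 gene lists (7 of partner genes, 11 of cell markers) were chosen with earlier results of these data known. Named in full were 8 preset members, any past the threshold and the 6 of smallest p in each comparison, and from each list up to 4 genes past the threshold or the 2 of smallest p. Alternatives were other pseudocounts, filters and scalings, robust moderation, no sex term, females only, other lengths, and each library left out.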

Additional observations from a re-analysis of the deposited data

Results flagged for a closer look

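Of the partner and marker genes named by value, 12 differed between the sexes in their genotype difference by the interaction term of limma; the lists hold further called genes, and no collagen gene was called. With no filter on low values limma called 0 of all genes in this test, and so none of these 12. The terms below are the labelled knockout minus labelled wild type difference in males minus that in females, on the log2(CPM + 0.5) scale, and each rests on 1 male per label. The part of cell makeup in these values was not tested.

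For Lox the term was 1.52 and for the proteoglycan Ogn 1.05 (limma adjusted p = 0.00983 and 0.0189). Ogn was at 347, 354 and 479 CPM in labelled knockout 1, 2 and 3, against 366, 385 and 247 CPM in labelled wild type 1, 2 and 3. Among genes of collagen degradation, the terms were 5.56 for Mmp8 and 3.79 for Mmp9 (limma adjusted p = 0.000462 and 0.000296). Mmp8 was at 5.42, 3.84 and 388 CPM in labelled knockout 1, 2 and 3, against 4.90, 4.10 and 7.60 CPM in labelled wild type 1, 2 and 3. For Ctsk the term was -2.12 and for Mmp12 -3.01 (limma adjusted p = 0.0146 and 0.0244). In labelled knockout 1, 2 and 3 Mmp12 was at 2.33, 3.52 and 1.25 CPM, against 4.44, 4.50 and 20.2 CPM in labelled wild type 1, 2 and 3, so the labelled wild type male stood high.

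For the receptors Adgrg1 and Lair1 the terms were 1.38 and -2.56 (limma adjusted p = 0.0189 and 0.0258). Adgrg1 was at 65.9 CPM in the labelled wild type male and 148 to 178 CPM elsewhere, and Lair1 at 43.5 CPM in that male and 5.19 to 10.8 CPM elsewhere. The endothelial marker Vwf had a term of 2.12, and the neutrophil markers Camp, Ngp and Retnlg had terms of 6.58, 7.62 and 4.66 (limma adjusted p = 0.00125, 0.00266, 0.000418 and 0.00142). Ngp was at 2.46, 1.23 and 1050.1 CPM in labelled knockout 1, 2 and 3, against 1.93, 1.38 and 4.52 CPM in labelled wild type 1, 2 and 3.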

How the results depend on the processing

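The count of collagen genes past the threshold between the labels was 0 under every alternative run. Between the sexes it was 1, and 2 under quantile normalization or robust moderation (Col12a1 and Col6a3), 0 after median centring, and 0 to 1 with 1 female left out. It was 0 without labelled knockout 1, labelled knockout 2 or labelled wild type 2. Leaving out labelled wild type 1 gave 1, where the gene was Col14a1 and not Col12a1. It was 2 without labelled knockout 3 (Col12a1 and Col13a1) and 7 without labelled wild type 3 (Col12a1, Col15a1, Col18a1, Col27a1, Col3a1, Col5a1 and Col6a3). Each fit without labelled knockout 3 or labelled wild type 3 leaves 1 male, so its count does not measure spread among males. No sex difference is read from the genes named for those fits. The male that remained lay below all 4 females for 27.1% of all genes without labelled knockout 3, and for 43.2% without labelled wild type 3. For the interaction the count of collagen genes past the threshold was 0, and 1 with robust moderation (Col3a1). With 1 female left out, 1 female of that label remains, so no count is given. Over all genes the interaction gave 441 calls, and 0 with no filter on low values; the cause was not tested. The interaction could not be estimated without either male. The count of members with both males below all 4 females (15) ranged from 16 to 27 with 1 library left out, with 27 without labelled wild type 3. Leaving out a library can only keep or raise this count, so the range is no test of it. The share of all genes ranged from 16.5% to 43.2%, against 14.7% with all 6 libraries. Leaving out libraries here was added after seeing the data.

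With the longest transcript as length the fibrillar share was 32.0%, and without division by length it was 30.3%, with 14.8% for beaded filament, 1.06% for short-chain and 3.25% for transmembrane genes. These moved by more than 1 SD between libraries, by construction of the length used.

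Signs reversed for small differences, none of them past the threshold. Between the labels, median centring gave 0.059 for Col1a1, 0.023 for Col6a3 and 0.035 for Col5a1, and quantile normalization gave -0.019 for Col6a2. In females alone the values were 0.027 for Col1a1, 0.022 for Col1a2, -0.058 for Col4a1, -0.084 for Col4a2, 0.036 for Col6a3, 0.093 for Col18a1 and 0.072 for Col5a1. For the interaction, median centring gave 0.0093 for Col1a1, 0.039 for Col8a2 and 0.21 for Col6a2, and quantile normalization 0.057 for Col8a2 and 0.0026 for Col6a2.

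With 1 library left out, the label difference ranged from -0.16 to 0.033 for Col1a1, -0.31 to 0.022 for Col1a2, -0.058 to 0.20 for Col4a1, -0.084 to 0.18 for Col4a2, -0.17 to 0.036 for Col6a3, -0.26 to 0.093 for Col18a1, -0.099 to 0.11 for Col6a2 and -0.17 to 0.072 for Col5a1. The sex difference ranged from -0.20 to 0.37 for Col4a1, -0.17 to 0.39 for Col4a2, -0.24 to 0.30 for Col4a3 and -0.70 to 4.52e-05 for Col18a1, and the interaction from -0.20 to 0.17 for Col6a2. The cause was not tested. No paired analysis was possible because the replicate numbers were given in accession order and the labels pair no libraries. With 3 libraries per label, 2 males in all and 3 reads equal to 0.109 to 0.148 CPM, values of the 6 members below the filter rest on few reads; with no filter all 40 were tested, with 0 calls between the labels, 1 between the sexes (Col12a1) and 0 for the interaction.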
